A study of Homo sapiens with 8 samples.

Results

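The 44 genes described here encode glucose and lactate carriers, the enzymes of glycolysis, the pentose phosphate pathway, the entry of pyruvate into mitochondria, the tricarboxylic acid (TCA) cycle and the glycerol phosphate shuttle. They were taken by symbol from the table of raw counts, which has 60646 genes, and all 44 were found and tested. They were measured by RNA-seq of ribosomal-RNA-depleted total RNA in MDA-MB-231, an established human triple-negative breast cancer cell line. The knockout group was 4 samples (numbered 1, 2, 3 and 5) of cells labelled DOT1L/+ KO, made with a guide RNA against the first exon of DOT1L, and the wild-type group was 4 samples with the same numbers. Both were kept in DMEM with 5% FBS, plated at about 50% confluency and collected on the following day. The labels do not give the glucose content of the medium, the edited sequence, or whether the knockout cells were 1 clone or a pool. Nothing in them says that the 4 samples of a group were separate cultures, so a p-value here speaks only of how much these libraries vary, and part of that variation may be technical.

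Cells take up glucose through GLUT carriers, and hexokinases trap it as glucose 6-phosphate. Glycolysis splits that sugar into pyruvate, which is either reduced to lactate and exported or carried into mitochondria and oxidised through the TCA cycle. The pentose phosphate pathway branches off at glucose 6-phosphate and makes NADPH and ribose for nucleotides. DOT1L is the methyltransferase of lysine 79 of histone H3, and the study's title concerns the turnover of MYC and the Mondo factors on chromatin. MYC and the glucose-sensing Mondo factors MLXIP and MLXIPL pair with MAX or MLX on E-boxes, and several genes of glucose metabolism are textbook targets of MYC.

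An E-box of the form CACGTG lay in the RefSeq promoters of 7 members, and 4 of these promoters are shown because their genes are described at length below. Each runs from 250 bases before to 50 bases after an annotated start in GRCh38.p14, 5′ to 3′ on the gene's strand, and capitals mark CACGTG. HK2 is read from chr2:74834920-74835219 on the plus strand, LDHA from chr11:18394313-18394612 on the plus strand, PDHB from chr3:58433783-58434082 on the minus strand, and GAPDH from chr12:6535014-6535313 on the plus strand.
HK2: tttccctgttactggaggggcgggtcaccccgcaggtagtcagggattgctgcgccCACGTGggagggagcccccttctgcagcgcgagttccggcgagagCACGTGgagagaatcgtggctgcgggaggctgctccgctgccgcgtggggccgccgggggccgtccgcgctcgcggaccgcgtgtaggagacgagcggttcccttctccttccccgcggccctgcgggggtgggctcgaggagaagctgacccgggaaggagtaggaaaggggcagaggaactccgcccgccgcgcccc
LDHA: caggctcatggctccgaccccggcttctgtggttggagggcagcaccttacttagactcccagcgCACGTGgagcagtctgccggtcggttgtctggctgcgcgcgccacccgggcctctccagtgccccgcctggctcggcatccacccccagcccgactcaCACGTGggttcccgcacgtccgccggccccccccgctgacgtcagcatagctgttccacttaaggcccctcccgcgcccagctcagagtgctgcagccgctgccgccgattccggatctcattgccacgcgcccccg
PDHB: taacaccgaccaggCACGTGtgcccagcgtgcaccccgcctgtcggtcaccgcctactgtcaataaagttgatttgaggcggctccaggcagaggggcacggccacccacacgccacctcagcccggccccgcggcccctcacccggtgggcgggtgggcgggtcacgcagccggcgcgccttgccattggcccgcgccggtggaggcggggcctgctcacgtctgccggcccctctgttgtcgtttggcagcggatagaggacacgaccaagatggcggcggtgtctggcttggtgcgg
GAPDH: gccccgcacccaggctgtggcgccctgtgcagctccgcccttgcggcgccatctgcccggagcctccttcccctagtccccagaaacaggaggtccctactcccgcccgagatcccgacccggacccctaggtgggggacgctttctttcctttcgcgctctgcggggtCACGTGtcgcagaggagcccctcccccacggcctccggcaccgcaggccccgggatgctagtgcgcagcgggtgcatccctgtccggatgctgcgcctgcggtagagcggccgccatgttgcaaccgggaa
The HK2 promoter shown holds 2 copies, which begin 194 and 149 bases before the start, and the LDHA promoter shown holds 2, at 185 and 87 bases before it. HK2 and LDHA each have a further RefSeq promoter, at chr2:74833877-74834176 and chr11:18396101-18396400, that holds no copy. The single copies of PDHB and GAPDH begin 236 and 81 bases before their starts. The other members with a copy are PFKFB3, ALDOA and ALDOC, of which PFKFB3 and ALDOA also have promoters without one.

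Total counts per sample lay between 46713622 and 49308625 in knockout and between 40103408 and 50031412 in wild-type samples, so that 1 count was worth 0.0198 to 0.025 CPM, the unit of normalised read counts scaled to library size. DOT1L itself, the targeted gene, stood at 85.3, 78.1, 83.2 and 92.3 CPM in knockout samples 1, 2, 3 and 5, against 115, 101, 103 and 118 CPM in wild-type samples in the same order. The groups did not overlap, and DOT1L was lower by a log2 change of -0.37 ± 0.06 (SE, adjusted p = 2.83e-05, edgeR). Relative to its chromosomal neighbours, whose median was -0.13, it stood at -0.24 (adjusted p = 0.00345, edgeR). Because 23.6% of all tested genes were lower, a fall of this kind cannot by itself verify the knockout. Adjusted p-values in what follows are from edgeR's quasi-likelihood test over all 19877 tested genes, with a threshold of 0.05, and log2 changes are knockout over wild-type, with their SE. The 7 genes known to mark MDA-MB-231 summed to 7174 to 7767 CPM in knockout and 6388 to 7046 CPM in wild-type samples. VIM was the largest part, averaging 3871 CPM in knockout and 2941 CPM in wild-type samples. VIM (0.40), KRT8 (0.80) and KRT18 (0.33) were higher, AXL (-0.30) and EGFR (-0.39) were lower, and CD44 and CAV1 did not pass (71.4% called, against 47.6% of all tested genes). A further 6 luminal or epithelial genes were listed as lacking in the line. They summed to 81.3 to 92.8 CPM in knockout and 95.1 to 100 CPM in wild-type samples. Most of that sum was ERBB2, which was not absent and was lower (-0.24, adjusted p = 0.000479). GATA3 (0.32, adjusted p = 0.0195) and ESR1 (adjusted p = 0.0333) were higher, and EPCAM did not pass. CDH1 had 41 and 1 counts and PGR 18 and 5 counts in knockout and wild-type samples, and neither was tested. The 8 markers of blood, endothelial and stromal cells summed to 25.7 to 31.8 CPM in knockout and 11.5 to 20.8 CPM in wild-type samples, and their part in any result was not tested. Most of that sum was COL1A1, averaging 18.7 CPM in knockout and 10.2 CPM in wild-type samples, and PDGFRB, averaging 8.39 and 5.61 CPM. COL1A1, VWF and CD68 were higher, PDGFRB and PECAM1 did not pass, and the others were not tested (60% called, against 47.6% of all tested genes). The blood cell marker PTPRC averaged 0.139 CPM in knockout and 0.0513 CPM in wild-type samples. CD3E and COL1A2 were at 0 in all 4 wild-type samples and at 1 and 13 counts over the 4 knockout samples. In RNA from a whole culture, fewer cells that hold an RNA and less of it per cell cannot be told apart.

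The enzymes and carriers of glucose metabolism did not move one way. Of the 44 members, 14 were higher in knockout cells, 16 were lower and 14 did not pass the test. That is 68.2% called, against 47.6% of all tested genes, and 29 of 43 members (67.4%) against 56.1% of genes in a fit kept to those averaging 1 or more on the log2 CPM scale. All 4 knockout samples lay above or below all 4 wild-type samples for 24 members (54.5%), against 43.4% of all tested genes. The median log2 change was -0.05 among members and 0.00 among all tested genes, and the median size of change, whatever its sign, was 0.22 among members and 0.24 among all. Changes of at least 0.5 on the log2 scale that passed the test were seen for 2 members upward (SLC16A1 and GPD1) and 8 downward (SLC2A1, HK2, PFKFB4, PGD, TKT, TALDO1, PDHB and PC). Over all genes 21.9% reached that size in either direction.

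**Figure D1:**
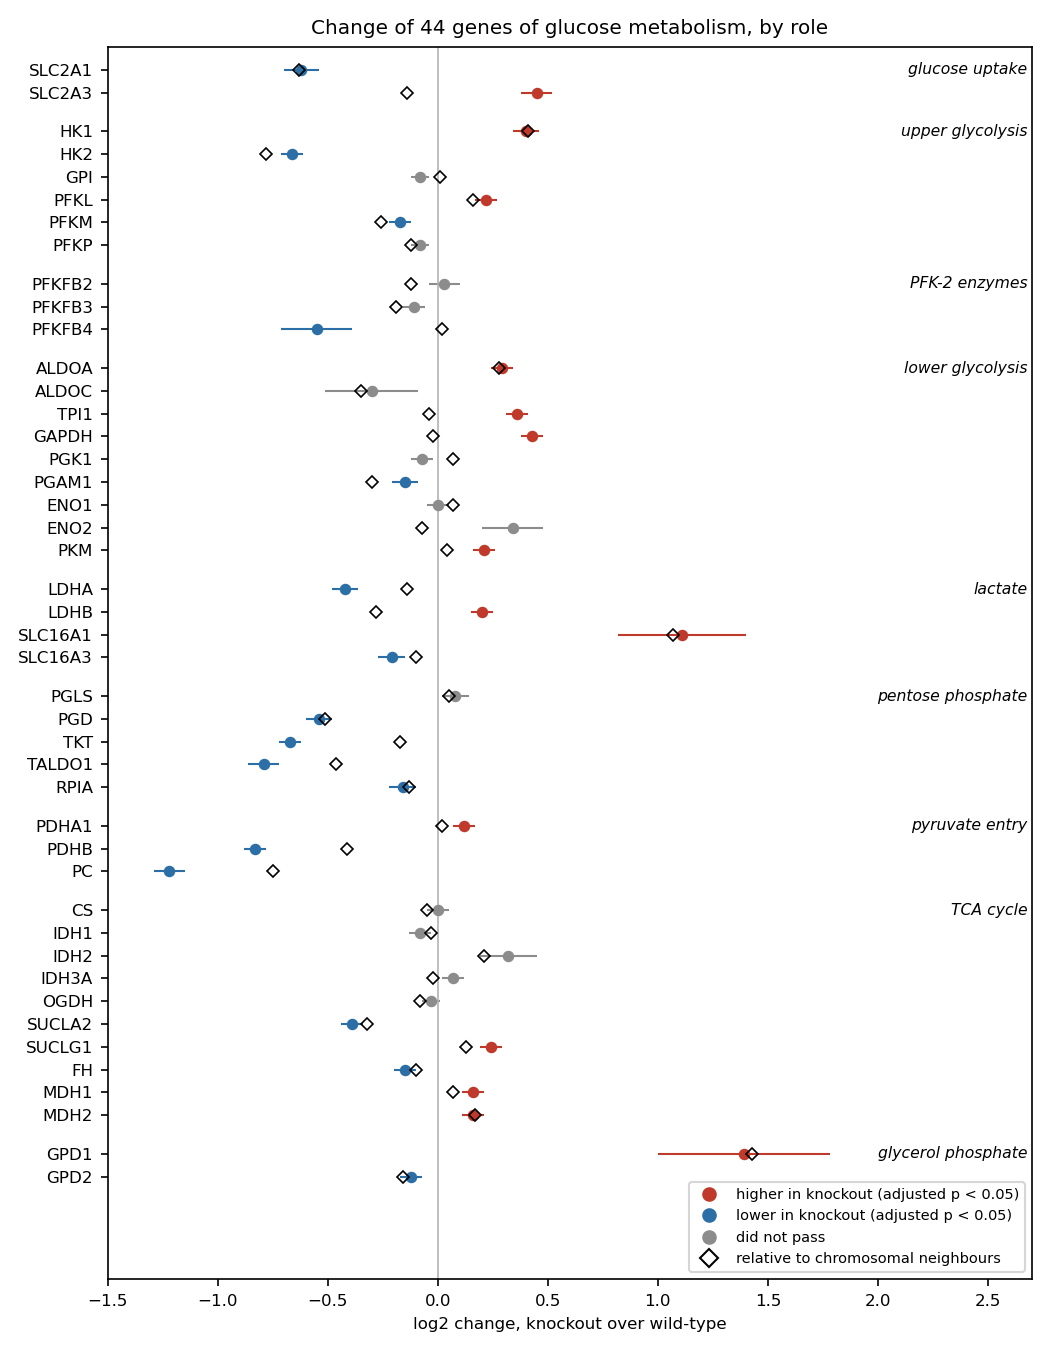
Log2 change of each of the 44 members (knockout over wild-type, x axis) by role, with bars of ± SE from the fit over 4 samples a group; open diamonds give the change relative to 20 tested chromosomal neighbours on each side. Values run from -1.22 (PC) to 1.39 (GPD1), and the diamonds of the chromosome 12 genes SLC2A3, TPI1, GAPDH and ENO2 sit near 0.

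The carriers that bring glucose in moved in opposite directions. SLC2A1 (GLUT1), the widespread basal glucose carrier, had 211, 202, 194 and 249 CPM in knockout samples and 335, 328, 293 and 360 CPM in wild-type samples. Every knockout sample was below every wild-type sample, and SLC2A1 was lower by a log2 change of -0.62 ± 0.08 (adjusted p = 1.23e-05). SLC2A3 (GLUT3), a carrier of high affinity known from neurons, had 46.8, 47.3, 44.3 and 47.5 CPM in knockout against 32.2, 39.7, 30.1 and 34.6 CPM in wild-type samples, a log2 change of 0.45 ± 0.07 (adjusted p = 1.81e-05). Relative to its chromosomal neighbours, which were higher as well, SLC2A3 stood at -0.14 (adjusted p = 0.0828). Per kilobase of exon, SLC2A1 RNA was 5.99 ± 0.58 times SLC2A3 RNA in knockout and 12.6 ± 1.31 times in wild-type cells (SD, n = 4 each). SLC2A1 stayed the more abundant of the pair in all 8 samples. The summed level of both carriers was 174 ± 21.6 TPM, a length-normalised abundance in knockout and 233 ± 26.2 TPM in wild-type cells, and one knockout sample, at 205 TPM, was above the lowest wild-type sample, at 199 TPM.

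Among the hexokinases, which phosphorylate glucose, the balance shifted from HK2 toward HK1. HK2, the inducible form that is high in many tumours, had 137, 145, 148 and 156 CPM in knockout samples, against 225, 251, 220 and 230 CPM in wild-type samples. HK1, the widespread form, had 444, 413, 420 and 388 CPM in knockout, against 321, 314, 343 and 285 CPM in wild-type samples. Neither gene's groups overlapped. HK2 was lower by a log2 change of -0.66 ± 0.05 (adjusted p = 1.07e-09), and HK1 was higher by 0.40 ± 0.06 (adjusted p = 4.70e-06). HK2 made up 26.8% ± 2.17 of the RNA of both per kilobase in knockout and 43.3% ± 2.68 in wild-type cells (SD, n = 4 each).

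**Figure D2:**
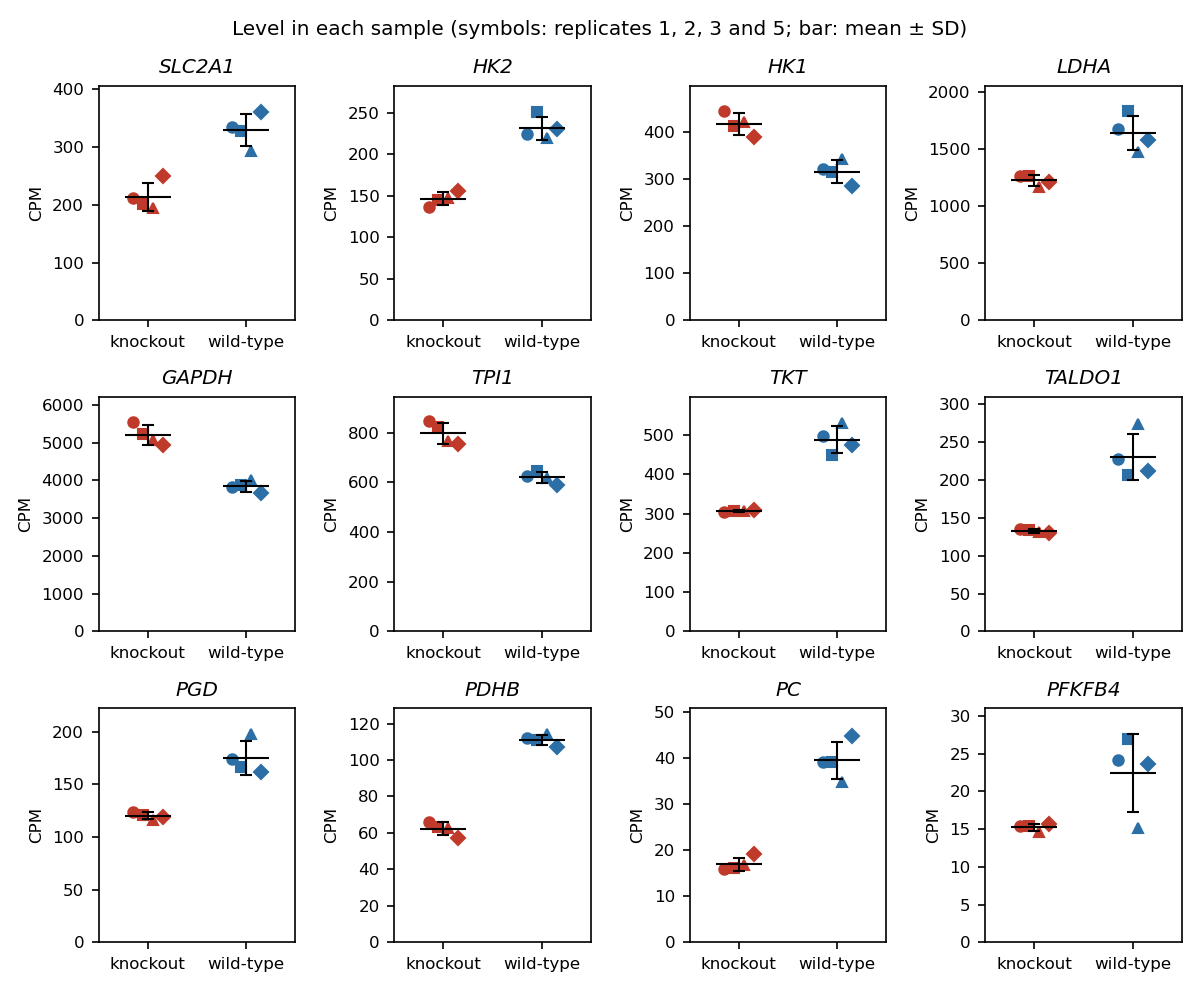
CPM of selected members in each sample, knockout left of wild-type, with 1 symbol per replicate number and bars at the group mean ± SD (n = 4 each). HK2, PDHB and PC lie lower in all 4 knockout samples, while for PFKFB4 wild-type sample 3, at 15.1 CPM, stands among the knockout samples.

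Of the phosphofructokinase subunits, which form the committing step of glycolysis, PFKL was higher and PFKM lower. PFKL averaged 94.2 ± 7.07 CPM in knockout and 80.8 ± 4.33 CPM in wild-type cells (log2 change 0.22, adjusted p = 0.00207). PFKM, the muscle-type subunit, averaged 62.9 ± 1.89 and 71 ± 4.26 CPM in knockout and wild-type cells (-0.17, adjusted p = 0.00608), and the call was lost under upper-quartile scaling. The PFKM gene overlaps SENP1 on the other strand, and the strand setting of the counting is not given in the sources used here. PFKP, the platelet-type subunit and the most abundant of the 3 per kilobase, had 186 ± 7.52 TPM in knockout and 185 ± 3.78 TPM in wild-type cells (log2 change on the CPM scale -0.08, adjusted p = 0.134). GPI, which turns glucose 6-phosphate into fructose 6-phosphate, did not pass either (-0.08, adjusted p = 0.161).

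The PFKFB enzymes set fructose 2,6-bisphosphate, the activator of phosphofructokinase. PFKFB4 had 15.4, 15.4, 14.6 and 15.7 CPM in knockout samples and 24.1, 27, 15.1 and 23.6 CPM in wild-type samples 1, 2, 3 and 5. The groups overlapped because of wild-type sample 3. PFKFB4 passed the test (-0.55 ± 0.16, adjusted p = 0.0214), at 1.47e-08 without wild-type sample 3, and missed it without any one of knockout samples 1, 3 or 5 or wild-type samples 1 or 5, with adjusted p between 0.0509 and 0.0607. It shares part of its locus with UCN2 on the same strand, whose counts were 62% of its own, so its level is uncertain. PFKFB3, the highly active kinase form, averaged 78 ± 0.993 CPM in knockout and 84.2 ± 5.15 CPM in wild-type cells (-0.11, adjusted p = 0.0637, and 0.0278 with the replicate number as a block). Relative to its chromosomal neighbours, whose median was 0.08, PFKFB3 was lower (-0.19, adjusted p = 0.00371). No other member gained a call in that way. PFKFB2, the heart-type form, averaged 21 ± 1.52 and 20.7 ± 1.29 CPM in knockout and wild-type cells (0.03, adjusted p = 0.776).

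The steps from aldolase to pyruvate include the most abundant RNAs of the whole set. Of their 9 genes 4 were higher, 1 was lower and 4 did not pass (55.6% called, against 47.6% of all tested genes). GAPDH, the dehydrogenase that yields glycolytic NADH, had 5550, 5228, 5078 and 4924 CPM in knockout samples, against 3818, 3882, 4013 and 3669 CPM in wild-type samples. All knockout samples were above all wild-type samples, and the log2 change was 0.43 ± 0.05 (adjusted p = 1.10e-06). TPI1, which interconverts the triose phosphates, had 845, 821, 768 and 754 CPM in knockout, against 627, 644, 617 and 591 CPM in wild-type samples (0.36 ± 0.05, adjusted p = 4.33e-06). Relative to their raised neighbours on chromosome 12 neither passed the test, with GAPDH at -0.02 and TPI1 at -0.04. PKM, the pyruvate kinase of most tissues, averaged 2066 ± 92.9 CPM in knockout and 1789 ± 51.1 CPM in wild-type cells (0.21, adjusted p = 0.00189). ALDOA, the muscle-type aldolase that most tissues express, averaged 70 ± 4.86 and 57.4 ± 2.1 CPM in knockout and wild-type cells (0.29, adjusted p = 0.000119). Reads at ALDOA can be shared with an overlapping same-strand gene model, ENSG00000285043, whose counts were 9.54% of its own, so its level is uncertain as well. PGAM1, the phosphoglycerate mutase, was the lower gene (-0.15, adjusted p = 0.0257), and that call was lost in 4 of the 8 fits that leave out a sample.

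PGK1 (-0.07) and ENO1 (-0.00), the kinase and the enolase between GAPDH and PKM, did not pass the test. ENO1 averaged 1472 ± 67.1 TPM in knockout and 1387 ± 46.7 TPM in wild-type cells, second in abundance among the members. In CPM, the scale of the test, it averaged 2365 ± 131 and 2367 ± 102. TPM are scaled otherwise and here ran somewhat higher in knockout than CPM did, which also holds for the summed levels. ENO2, the neuronal enolase, had 102, 87.1, 87.4 and 80.4 CPM in knockout, against 70.9, 83.3, 53.8 and 75.4 CPM in wild-type samples, and the groups overlapped (0.34 ± 0.14, adjusted p = 0.0889). ALDOC, the brain-type aldolase, had 27.5, 23.9, 18.6 and 17.6 CPM in knockout, against 31.7, 32.6, 21.5 and 22.4 CPM in wild-type samples. Its groups overlapped too, while each knockout sample was below the wild-type sample of the same number, and it was called only with the replicate block (-0.30, adjusted p = 0.299 without and 6.10e-05 with it). Summed over the 9 genes, the level was 9591 ± 392 TPM in knockout and 7351 ± 198 TPM in wild-type cells, without overlap. GAPDH alone gave 40.7% of the TPM of all 44 members, so this sum follows it closely.

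The lactate dehydrogenase subunits moved in opposite directions, though not relative to their chromosomal neighbours. LDHA, the subunit that favours the reduction of pyruvate to lactate, had 1269, 1264, 1170 and 1212 CPM in knockout samples, against 1675, 1836, 1478 and 1586 CPM in wild-type samples (-0.42 ± 0.06, adjusted p = 5.73e-06). LDHB, the subunit that favours the reverse reaction, had 96.9, 104, 96.1 and 98.9 CPM in knockout, against 82.2, 82.4, 96.1 and 83.6 CPM in wild-type samples (0.20 ± 0.05, adjusted p = 0.00328). Neither gene's groups overlapped, but wild-type sample 3 came level with the lowest knockout sample for LDHB. Relative to their neighbours LDHA missed the threshold (-0.14, adjusted p = 0.0684) and LDHB turned to lower (-0.28, adjusted p = 0.000449). Per kilobase, LDHB was 14.4% ± 0.435 of the RNA of both subunits in knockout and 9.91% ± 1.45 in wild-type cells (SD, n = 4 each).

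SLC16A3 (MCT4), the lactate exporter of glycolytic cells, averaged 392 ± 13.2 CPM in knockout and 454 ± 42.5 CPM in wild-type cells (-0.21, adjusted p = 0.00537), a call lost when libraries were scaled by their upper quartile or by totals alone, and relative to its neighbours (-0.10, adjusted p = 0.151). The small falls of PGAM1, RPIA, FH and GPD2 also missed the threshold under both of those scalings. SLC16A1 (MCT1), a monocarboxylate carrier of higher affinity, had 3.06, 3.39, 3.59 and 4.92 CPM in knockout, against 0.944, 1.33, 2.79 and 1.79 CPM in wild-type samples (1.11 ± 0.29, adjusted p = 0.00917). MCT1 RNA was rare in both groups, at 1.59% ± 0.297 of the RNA of both carriers per kilobase in knockout and 0.662% ± 0.376 in wild-type cells. SLC16A3 overlaps CSNK1D on the other strand, with the same limit on strand as PFKM.

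Of the 5 pentose phosphate enzymes, 4 were lower in knockout cells, 1 did not pass the test and none was higher. Among all tested genes 23.6% were lower. TALDO1, the transaldolase, had 135, 134, 131 and 130 CPM in knockout samples, against 228, 206, 274 and 212 CPM in wild-type samples (-0.79 ± 0.07, adjusted p = 2.54e-07). TKT, the transketolase, had 305, 307, 306 and 309 CPM in knockout, against 497, 450, 531 and 475 CPM in wild-type samples (-0.67 ± 0.05, adjusted p = 5.83e-10). PGD, the second NADPH-producing dehydrogenase of the oxidative arm, had 124, 121, 116 and 119 CPM in knockout, against 174, 166, 198 and 162 CPM in wild-type samples (-0.54 ± 0.06, adjusted p = 5.67e-08). None of these 3 genes' groups overlapped, and wild-type sample 3 was the highest of the 8 in each. Without it the log2 changes were -0.70 for TALDO1, -0.62 for TKT and -0.47 for PGD, and all 3 stayed past the threshold. RPIA, which forms ribose 5-phosphate, was lower by a log2 change of -0.16 (adjusted p = 0.0417), a call lost in 5 of the 8 fits that leave out a sample. PGLS, the lactonase, did not pass (0.08, adjusted p = 0.277). The summed level of the 5 genes was 490 ± 10.8 TPM in knockout and 679 ± 40.7 TPM in wild-type cells.

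At the entry of pyruvate into mitochondria, PC and PDHB were lower. PC, the carboxylase that makes oxaloacetate from pyruvate, had 16, 16.2, 16.7 and 19.1 CPM in knockout samples, against 39.2, 39.2, 34.8 and 44.8 CPM in wild-type samples. This was the greatest fall among the 44 members, a log2 change of -1.22 ± 0.07 (adjusted p = 6.55e-11). PDHB, the beta subunit of the pyruvate dehydrogenase E1 enzyme, had 65.8, 63.1, 62.8 and 57.3 CPM in knockout, against 112, 111, 114 and 107 CPM in wild-type samples (-0.83 ± 0.05, adjusted p = 8.87e-12). PDHA1, the alpha subunit of the same enzyme, averaged 149 ± 3.47 CPM in knockout and 137 ± 6.36 CPM in wild-type cells (0.12, adjusted p = 0.0375), and its call was lost in 6 of the 8 fits that leave out a sample. Per kilobase, PDHB was 28.5% ± 0.73 of the RNA of both subunits in knockout and 43.6% ± 0.986 in wild-type cells (SD, n = 4 each). PC overlaps LRFN4 on the other strand, whose counts were 202 per 100 of its own, so its level is uncertain where strand was not used.

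Of the 10 TCA cycle genes, 3 were higher, 2 were lower and 5 did not pass (50% called, against 47.6% of all tested genes). Relative to their chromosomal neighbours 30% were called, against 43.9% of all genes. SUCLA2, the ATP-forming beta subunit of succinyl-CoA ligase, had 24.7, 26.5, 26.8 and 26.6 CPM in knockout, against 33.7, 32.8, 35.9 and 34.9 CPM in wild-type samples (-0.39 ± 0.05, adjusted p = 3.23e-06). SUCLG1, the alpha subunit of that ligase, averaged 99.1 ± 3.94 CPM in knockout and 84.2 ± 5.78 CPM in wild-type cells (0.24, adjusted p = 0.000693). The 2 subunits therefore went opposite ways. SUCLA2 overlaps the pseudogene NAP1L4P3 on the other strand, whose counts were 18.6% of its own, and carries the same limit on strand as PFKM. The malate dehydrogenases MDH1 of the cytosol and MDH2 of mitochondria were each higher by 0.16 on the log2 scale (adjusted p = 0.00592 and 0.00826), and FH, the fumarase, was lower by -0.15 (adjusted p = 0.0217). Relative to its neighbours MDH1 did not pass (0.07, adjusted p = 0.26). The FH call was lost in 2 of the 8 fits that leave out a sample.

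CS (0.00), the synthase that opens the cycle, IDH1 (-0.08), the cytosolic isocitrate dehydrogenase, IDH3A (0.07), the catalytic subunit of the NAD-dependent one, and OGDH (-0.03), of the oxoglutarate dehydrogenase complex, did not pass the test. IDH2, the mitochondrial NADP-dependent isocitrate dehydrogenase, had 46.4, 40, 36 and 31.2 CPM in knockout, against 35.1, 33, 27.7 and 27.5 CPM in wild-type samples. Its groups overlapped, while each knockout sample was above the wild-type sample of the same number (0.32, adjusted p = 0.0854 without and 8.57e-06 with the replicate block). In the glycerol phosphate shuttle, which moves cytosolic NADH electrons to mitochondria, GPD1, the cytosolic enzyme, was near the lower end of detection at 59 counts over the 4 knockout samples and 20 over the 4 wild-type samples. Its CPM were 0.245, 0.4, 0.251 and 0.317 in knockout and 0.189, 0.125, 0.0845 and 0.0654 in wild-type samples, without overlap (1.39 ± 0.39, adjusted p = 0.00626). GPD2, the mitochondrial enzyme, was lower by -0.12 (adjusted p = 0.0488), a call lost in 6 of the 8 fits that leave out a sample.

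Ratios within a library do not depend on how libraries are scaled, so 15 pairs of isozymes, carriers or subunits were compared per kilobase. For 11 of the 15 pairs the groups did not overlap. The two-sided exact permutation test gave p = 0.0286 for each of these, or 0.039 adjusted over the 15 pairs. That p is the smallest that 4 against 4 samples allow. By level alone, the groups did not overlap for 43.4% of all tested genes. How often the ratio of any 2 genes would separate the groups was not tested. The greatest shift among the pairs of abundant genes was SLC2A1 to SLC2A3, with a difference in log2 ratio of -1.08, followed by HK2 to HK1 with -1.06 and PDHB to PDHA1 with -0.96. SUCLA2 to SUCLG1 differed by -0.63, LDHB to LDHA by 0.62, ALDOC to ALDOA by -0.58, PFKM to PFKL by -0.39, ENO2 to ENO1 by 0.35 and PFKP to PFKL by -0.30. The pairs with a rare member, GPD1 to GPD2 and SLC16A1 to SLC16A3, differed by 1.49 and 1.42. Groups overlapped for PFKFB3 to PFKFB4 (p = 0.114 in the exact permutation test), PFKFB2 to PFKFB4 and IDH2 to IDH1 (each p = 0.0571, exact permutation test, adjusted 0.0659). MDH2 to MDH1 stood at 1.72 in knockout and 1.73 in wild-type cells (p = 0.943, exact permutation test).

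**Figure D3:**
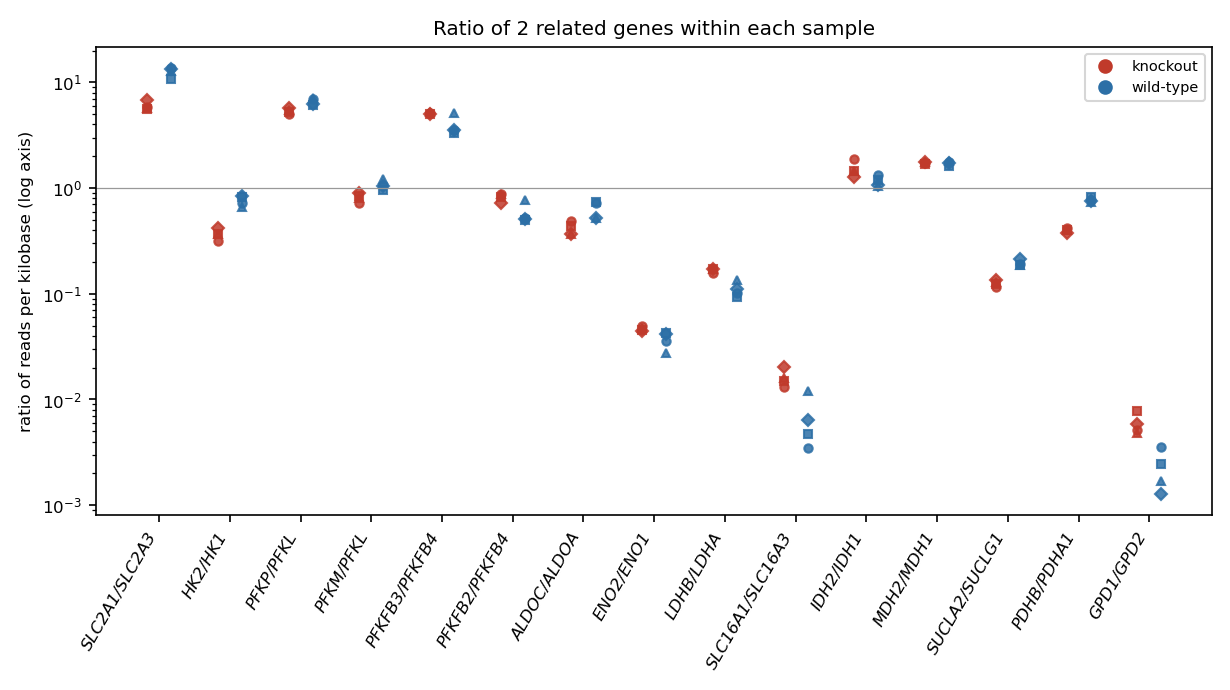
Ratio of reads per kilobase (log axis) for 15 pairs of isozymes, carriers or subunits, knockout left of wild-type, with 1 symbol per sample. The groups are apart for 11 pairs and overlap for PFKFB3/PFKFB4, PFKFB2/PFKFB4, IDH2/IDH1 and MDH2/MDH1.

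Where a member lies on its chromosome went with how it changed. For each tested gene the median log2 change of the 20 tested genes on either side was taken, and it lay beyond 0.2 in size for 11 of the 44 members, against 16.7% of all genes. All 5 members whose neighbours were higher are on chromosome 12: SLC2A3, TPI1, GAPDH, ENO2 and LDHB, with neighbour medians of 0.59, 0.41, 0.45, 0.40 and 0.48. Between 26 and 30 of their 40 neighbours were called higher. The 6 members whose neighbours were lower are PFKFB4, TKT and PDHB on chromosome 3, with medians of -0.58, -0.51 and -0.43, and LDHA, TALDO1 and PC on chromosome 11, with -0.27, -0.34 and -0.46. All 6 were themselves lower. These windows share neighbours, 34 of 40 in the case of TPI1 and ENO2 and 14 in the case of TKT and PDHB, so the members of a stretch are not independent observations.

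A fit of each gene relative to its neighbours called 20 of the 44 members (45.5%), against 43.9% of all genes, with 7 higher, 13 lower and 24 not passing. Of the 30 members called at first, 18 kept their direction and call. Of the 5 members in the raised stretches of chromosome 12, none was higher relative to its neighbours. GAPDH stood at -0.02 ± 0.06 (adjusted p = 0.835), TPI1 at -0.04 ± 0.05 (0.53), SLC2A3 at -0.14 ± 0.06 (0.0828) and ENO2 at -0.07 ± 0.12 (0.694), all as log2 changes with adjusted p-values. LDHB turned round, to -0.28 ± 0.06 (adjusted p = 0.000449). In the lowered stretches PC (-0.75), TALDO1 (-0.46), PDHB (-0.41) and TKT (-0.17, adjusted p = 0.0149) stayed lower than their neighbours, while LDHA (-0.14, adjusted p = 0.0684) and PFKFB4 (0.02, adjusted p = 0.933) did not pass. Whether gene copy number differs between the groups was not tested.

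**Figure D4:**
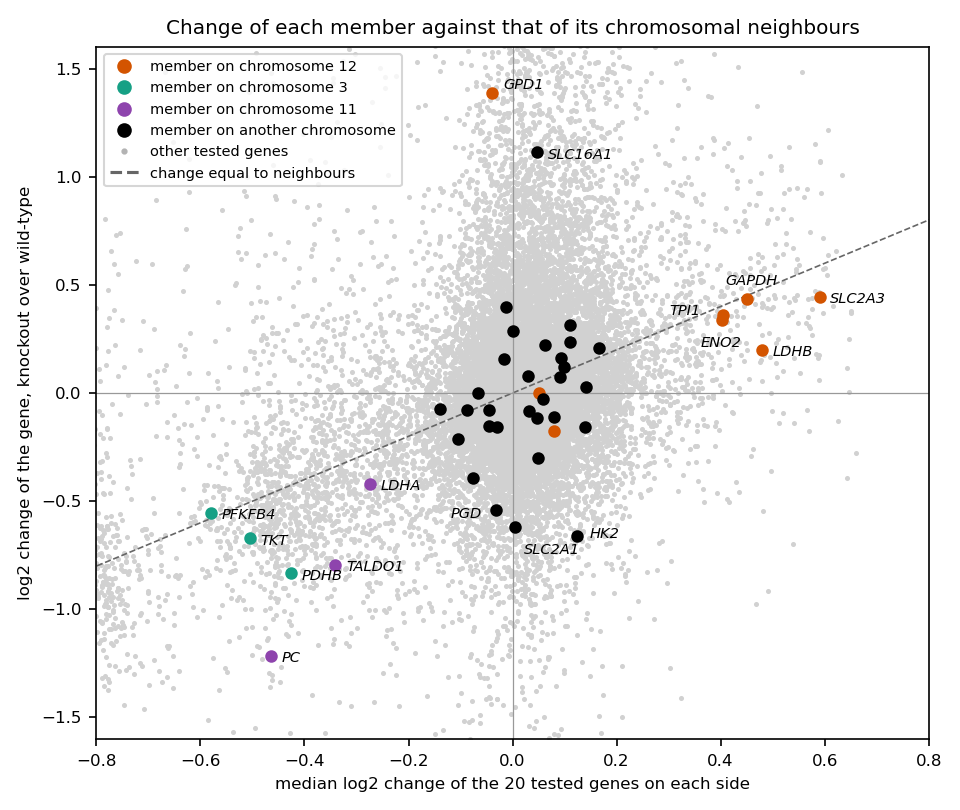
Log2 change of each member (y axis) against the median log2 change of its 20 tested neighbours on each side (x axis), with other tested genes in grey and a dashed line where both are equal; genes beyond the axis limits are not drawn. The 5 labelled chromosome 12 genes at the right lie at or below the line, and HK2, SLC2A1 and PGD lie far below 0 with neighbours near 0.

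In 33 members the neighbours had a median within 0.2 of 0, and 10 of these were higher, 10 lower and 13 not passing. Of all tested genes, whatever their neighbours, 23.9% were higher and 23.6% lower. The neighbours of SLC2A1, HK1, HK2, PGD and SUCLA2 were of this kind, and relative to them the log2 changes were -0.63 ± 0.08, 0.41 ± 0.06, -0.78 ± 0.07, -0.51 ± 0.05 and -0.32 ± 0.05, all past the threshold. ALDOA (0.28), SLC16A1 (1.07) and GPD1 (1.43) were likewise higher relative to their neighbours. PKM, at 0.04 (adjusted p = 0.586), was not. PFKM, CS and GPD1 are also on chromosome 12 but outside the raised stretches.

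**Figure D5:**
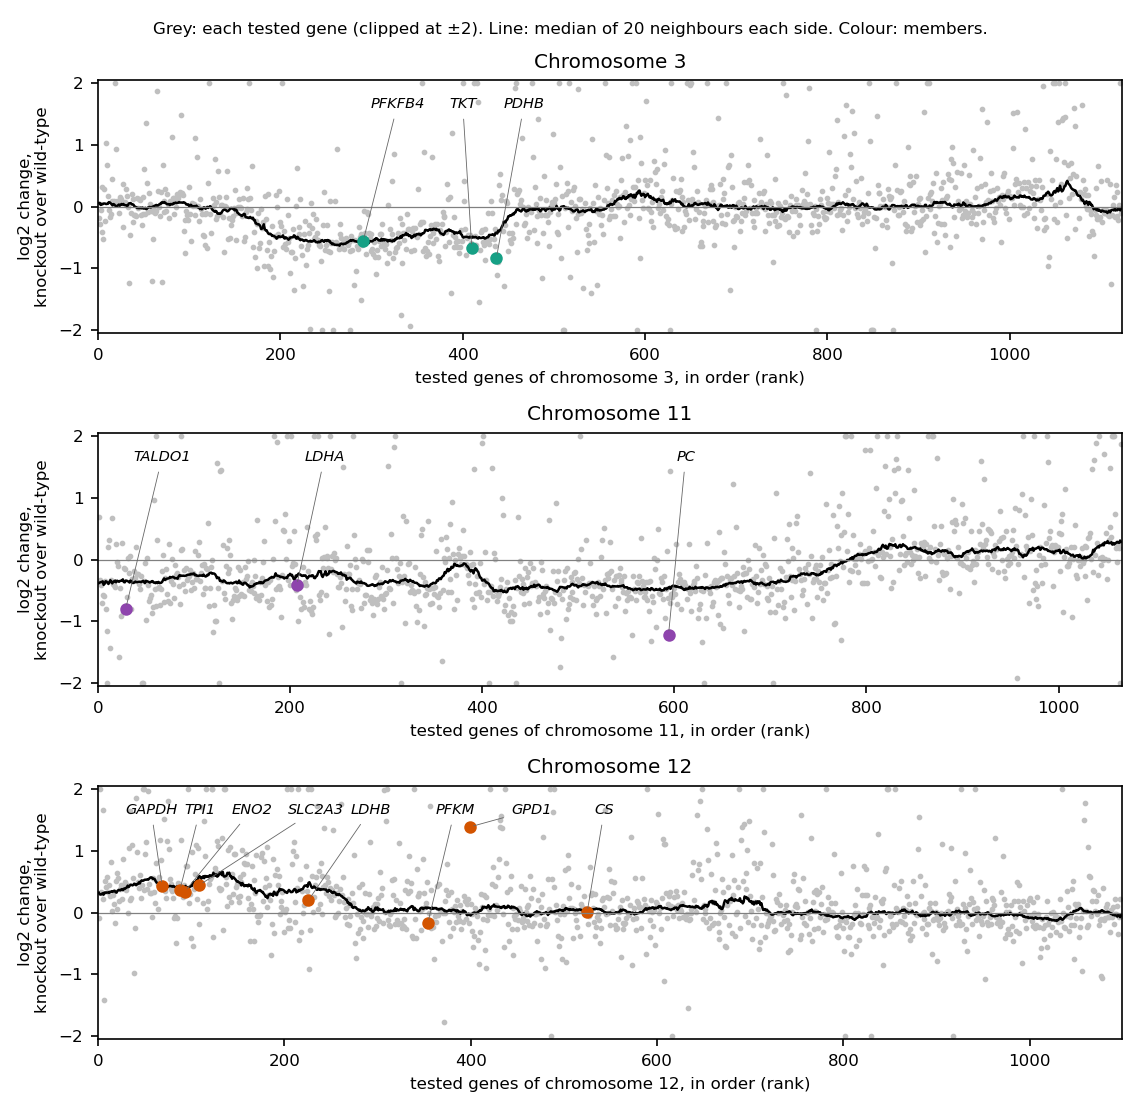
Log2 change (knockout over wild-type, drawn at ±2 where beyond it) of every tested gene in its order along chromosomes 3, 11 and 12, with the median of 20 neighbours each side as a black line and members in colour. GAPDH, TPI1, ENO2 and SLC2A3 lie in the raised start of chromosome 12, and PC lies below the line of its lowered stretch of chromosome 11.

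Members with an E-box and members without one both included higher and lower genes. CACGTG, which reads the same on both strands, was in 7 of the 69 RefSeq promoters of the 39 members that have any (10.1%), against 7.26% of all 35116 promoters of that table. The core ACGTG, searched on both strands and contained in CACGTG, was in 21 of the 69 (30.4%), against 21.4% of all. A double E-box-like motif, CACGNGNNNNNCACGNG on either strand, was in none of the member promoters and in 0.057% of all. Of the 7 members with CACGTG, HK2, LDHA and PDHB were lower, GAPDH and ALDOA higher, and PFKFB3 and ALDOC did not pass, with a median log2 change of -0.30. Of the 32 members with a promoter in the table and no CACGTG, 13 were lower, 9 higher and 10 did not pass, with a median of -0.08. Over all tested genes 23.6% were lower and 23.9% higher. A match is only a match of letters in these windows.

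Among the transcription factors and sensors tied to these genes, MYC averaged 124 ± 5.68 CPM in knockout and 193 ± 14.2 CPM in wild-type cells (-0.63 ± 0.05, adjusted p = 3.12e-09). HIF1A, which induces glycolytic genes in hypoxia, averaged 390 ± 25.1 and 560 ± 33 CPM in knockout and wild-type cells (-0.52 ± 0.05, adjusted p = 8.43e-08). MLXIP (MondoA) did not pass (-0.01), while TXNIP and ARRDC4, its textbook targets and brakes on glucose uptake, were higher by 0.44 ± 0.06 (adjusted p = 1.18e-05) and 0.38 ± 0.09 (adjusted p = 0.00178). MAX and MLX were lower by -0.18 and -0.12 (adjusted p = 0.00322 and 0.031). Of the 12 regulators listed, DOT1L included, 3 were higher, 5 lower and 4 did not pass (66.7% called, against 47.6% of all tested genes).

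A list of 92 further genes of the same pathways held 71 that were tested. Of these 22 were higher, 22 lower and 27 did not pass (62% called, against 47.6% of all tested genes). Their median log2 change was 0.01. The malic enzymes ME1, which makes cytosolic NADPH, and ME3 of mitochondria were both lower. ME1 had 16.7, 16.2, 17.3 and 16.4 CPM in knockout, against 38.1, 36.6, 46.5 and 38.6 CPM in wild-type samples (-1.26 ± 0.07, adjusted p = 3.10e-12), and ME3 averaged 23.7 ± 1.1 and 48.5 ± 2.38 CPM in knockout and wild-type cells (-1.03 ± 0.05, adjusted p = 2.37e-12). Of the 16 tested genes of that TCA-linked list, 3 were higher and 7 lower (62.5% called, against 47.6% of all tested genes). TIGAR, a phosphatase that lowers fructose 2,6-bisphosphate, had 18.1, 19.2, 20 and 20 CPM in knockout, against 9.86, 9.77, 9.98 and 9.57 CPM in wild-type samples (0.98 ± 0.07, adjusted p = 1.04e-10). Its gene is in a raised stretch, and relative to its neighbours it was higher by 0.52 (adjusted p = 3.30e-06). FBP1, the gluconeogenic fructose 1,6-bisphosphatase, was higher by 0.53 ± 0.12 (adjusted p = 0.00236).

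Around pyruvate dehydrogenase, 7 of 12 further genes were lower and 4 higher (91.7% called, against 47.6% of all tested genes). Relative to their chromosomal neighbours 4 were lower, 2 higher and 6 did not pass (50% called, against 43.9% of all genes). The genes named next had the greatest changes among those that passed without overlap of the groups, and all of them were lower. PDHX, which anchors the E3 enzyme of the complex, averaged 43.9 ± 2.37 CPM in knockout and 65.1 ± 2.93 CPM in wild-type cells (-0.57 ± 0.05, adjusted p = 8.19e-09), and relative to neighbours with a median of -0.39 it stood at -0.18 (adjusted p = 0.00658). The phosphatase subunits PDP2 and PDPR, which switch the complex on and modulate that step, were lower by -0.45 and -0.37 (adjusted p = 4.78e-07 and 2.80e-07), PDPR with a neighbour median of -0.31 and no call relative to it. Of the other pentose genes, RBKS, the ribokinase, was higher (0.70, adjusted p = 9.27e-06) and H6PD, the dehydrogenase of the endoplasmic reticulum, lower (-0.27, adjusted p = 0.000203).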

How the data were processed

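Per the submitters' processing notes, the tools used were FastQC 0.11.7, STAR 2.6.0c, featureCounts from Subread 1.6.2 and DESeq2 1.23.10, with the build hg38. The labels name a stranded total RNA kit. The annotation release and the counting options for strand and multi-mapped reads are not given in the sources used here. The authors deposited raw counts per gene and variance-stabilized values on a log2 scale, with 1 column per sample. Counts at a member with pseudogene copies could be split between them, and the pseudogenes of TPI1 held 21.6% as many counts as TPI1 itself, those of HK2 2.97% and those of GAPDH 1.85%.

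Genes were tested with edgeR 4.0.16 (filterByExpr, TMM scaling, robust quasi-likelihood fit) in R 4.3.3 on the counts of 8 samples, with group as the only term, and adjusted by Benjamini-Hochberg over 19877 genes. CPM use TMM-scaled library sizes. TPM use exon lengths of GENCODE 29 and the sum over all genes of a sample, without the TMM factors. Those factors were 1.018 to 1.027 in knockout and 0.9463 to 0.9963 in wild-type samples. The fit relative to neighbours adds an offset for the median deviation of 20 tested genes on each side. Ratios of 2 genes add 0.5 counts to each. On simulated data of 19013 genes this comparison recovered 77.6% of genes changed 1.5-fold, 97% of those changed 2-fold and 100% of those changed 4-fold. Of its 194 calls 5.67% were false. Only 67, 67 and 66 genes were changed there, in random directions, and none of them was rare. In the data themselves 9458 genes were called, so the simulation does not show how scaling or false calls fare here.

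Samples with the same number deviated together (r of 0.371, 0.146, 0.147 and 0.374 over 13342 genes, against -0.303 to 0.0601 between other numbers), so the numbers were taken as pairs from the data, and blocked values stand beside each result whose call they change. No pair of samples within a group was alike to within sampling noise. The members, gene lists, motifs and tests were chosen with earlier results of these data known. All members could be named, together with the listed regulators and, of each other list, up to 3 genes that passed the test without overlap of the groups. Alternatives were other scalings (upper quartile, library totals, RLE), DESeq2 1.42.0, limma 3.58.1 on the deposited log2 values, other filters, the replicate block, pseudogene counts added, 10 neighbours, and leaving out each sample.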

Additional observations from a re-analysis of the deposited data

Results flagged for a closer look

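A test for 1 sample that stands apart was run in 118 groups of 4 samples, 88 of member levels and 30 of ratios, and marked 5, where chance alone marks about 1 group in 20. LDHB in wild-type sample 3 was at 96.1 CPM, against 82.2 to 83.6 CPM in the other wild-type samples. SUCLA2 in knockout sample 1 was at 24.7 CPM, against 26.5 to 26.8 CPM in the other knockout samples. The ratio of PFKFB3 to PFKFB4 was 5.14 in wild-type sample 3, against 3.33 to 3.54 in the other wild-type samples. The ratio of PFKFB2 to PFKFB4 in the same sample was 0.764, against 0.494 to 0.52. The ratio of LDHB to LDHA was 0.159 in knockout sample 1, against 0.17 to 0.171 in the other knockout samples. In 3 of the 5, wild-type sample 3 is the one that stands apart.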

How the results depend on the processing

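The 30 members called numbered 19 relative to 10 neighbours on each side and 20 relative to 20, and 25 to 31 when a sample was left out. Those higher numbered 7 relative to 20 neighbours and 7 relative to 10, against 14, and those lower numbered 10 under upper-quartile scaling, against 16. With a sample left out the members higher numbered 13 to 16 and those lower 12 to 15. Over all genes the split of 4759 higher and 4699 lower became 6021 and 3705 under upper-quartile scaling and 5905 and 3744 with library totals. The replicate block called 33 members and 10472 genes. It changed the member calls of PFKFB3, ALDOC and IDH2 and no other. Among called members, 13 kept direction and call under every alternative run: SLC2A1, HK1, HK2, PFKL, ALDOA, SLC16A1, PGD, TKT, TALDO1, PDHB, PC, SUCLA2 and GPD1. GPD1 is too rare for the fit kept to genes with a mean log2 CPM of 1 or more, which therefore says nothing of it.

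Signs turned in 13 members, and the cause was not tested. Relative to 20 and 10 neighbours the log2 changes were -0.14 and -0.05 for SLC2A3, -0.02 and -0.12 for GAPDH, 0.07 and 0.08 for PGK1, 0.07 and 0.17 for ENO1, -0.07 and -0.01 for ENO2, -0.28 and -0.17 for LDHB, -0.05 and -0.08 for CS and -0.02 and -0.06 for IDH3A. Relative to 20 neighbours alone they were 0.01 for GPI, -0.12 for PFKFB2, 0.02 for PFKFB4 and -0.04 for TPI1. Upper-quartile scaling and library totals each gave 0.06 for ENO1 and 0.04 for OGDH. CS was at -0.01 with no filter and with DESeq2, and at -0.00 on the deposited log2 values. With a sample left out, PFKFB2 ranged from -0.01 to 0.07, ENO1 from -0.04 to 0.02 and CS from -0.03 to 0.06. The ratios kept their direction under every alternative run, and their side of the threshold where a test could reach it, except MDH2 to MDH1, which lay near 0 and ranged from -0.04 to 0.02 with a sample left out. Paired by number, 4 pairs cannot give an exact p under 0.125.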

Other observations

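Among further transporters of glucose, SLC2A4 (GLUT4), the insulin-responsive carrier, had 0.837, 0.779, 1.02 and 0.734 CPM in knockout, against 2.01, 2.73, 1.75 and 2.35 CPM in wild-type samples, without overlap (log2 change -1.38 ± 0.18, adjusted p = 1.78e-06). SLC2A11 was higher (0.53 ± 0.09, adjusted p = 7.35e-05). Of the 7 tested genes of that list, 1 was higher and 1 lower (28.6% called, against 47.6% of all tested genes). In glycogen metabolism 5 of 10 tested genes were higher and 2 lower (70% called, against 47.6% of all tested genes). GBE1, the branching enzyme, averaged 97.4 ± 3.86 CPM in knockout and 129 ± 6.14 CPM in wild-type cells (-0.41 ± 0.05, adjusted p = 3.53e-07), whereas PGM2, a phosphoglucomutase, averaged 165 ± 2.88 and 131 ± 10.9 CPM in knockout and wild-type cells (0.34 ± 0.05, adjusted p = 2.11e-05) and UGP2, which makes UDP-glucose, 89.8 ± 2.75 and 78.1 ± 3.82 CPM (0.20 ± 0.05, adjusted p = 0.0012).

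Some rare RNAs of the pathway also passed the test. PGAM2, the muscle phosphoglycerate mutase, had 79 counts over the knockout and 24 over the wild-type samples (log2 change 1.55 ± 0.34, adjusted p = 0.000668), and MDH1B had 88 and 38 counts in knockout and wild-type samples (1.05 ± 0.29, adjusted p = 0.00504). LDHD, the D-lactate dehydrogenase, had 83 and 137 counts in knockout and wild-type samples (-0.88 ± 0.25, adjusted p = 0.00618). BSG, the chaperone of the lactate carriers, averaged 492 ± 7.04 CPM in knockout and 453 ± 20.9 CPM in wild-type cells (0.12 ± 0.05, adjusted p = 0.0397). In the NADH shuttles GOT2 and GPD1L were lower, by -0.26 and -0.21 (adjusted p = 9.52e-05 and 0.00517).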
